A study of Mus musculus with 13 samples.

Results

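The MHC class II pathway was described here through 9 mouse genes: the classical chains H2-Aa, H2-Ab1 and H2-Eb1, the invariant chain Cd74, the coactivator Ciita, the H2-M chains H2-DMa and H2-DMb1, and the H2-O chains H2-Oa and H2-Ob. They were picked by symbol, through the RefSeq identifiers of the count files. Each symbol had 1 identifier, so that 9 of the 24072 identifiers counted were taken. All 9 passed the filter on low counts that left 12722 genes for testing. Total RNA came from CLP, the common lymphoid progenitors that give rise to B cells and other lymphocytes, sorted by flow cytometry from the bone marrow of wild-type C57BL/6 mice. The sort separated 3 compartments: Ly6D+Gfra2+ (3 libraries), Ly6D+Gfra2- (4 libraries) and Ly6D-Gfra2- (6 libraries). Ly6D is a surface protein that marks B-lineage bias among these progenitors, and Gfra2 is a co-receptor of the GDNF ligand family. No treatment or engineered allele is given for any group, and the age of the mice and the number of animals behind a library are not stated, so the p-values reflect the spread among libraries, which may be technical.

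Class II molecules are dimers of an alpha and a beta chain that carry peptides from the endosome to the cell surface, where CD4+ T cells read them. Cd74 holds new dimers and guides them to the endosome. H2-M then exchanges the remnant of Cd74 for other peptides, and H2-O inhibits H2-M, mainly in B cells and some dendritic cells. Ciita does not bind DNA itself. It is recruited by RFX, CREB and NF-Y proteins that sit on the X and Y boxes of the promoters of these genes, and it is the switch on which class II transcription depends. Mature B cells, dendritic cells and activated macrophages make class II, whereas early lymphoid progenitors are generally regarded as low in it. C57BL/6 mice do not make a functional H2-Ea chain, so H2-Eb1 has no partner in them.

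Promoter sequences were read for the genes with an entry in the table used, RefSeq windows on GRCm38.p6 that run from 250 bases before to 50 bases after the annotated start; H2-Aa, H2-Eb1, H2-DMa, H2-DMb1, H2-Oa and H2-Ob had an entry, and H2-Ab1, Ciita and Cd74 were not matched. Each window was searched on both strands for GNAAC followed, 20 to 35 bases further on, by ATTGG, letters written down after these sequences had been read and modelled on the X box and on the CCAAT element of the Y box, which reads ATTGG on the gene's strand. The stretch around the pair is shown for the 5 genes that held it, with both motifs in capitals, since it is the element that Ciita's partners are known to occupy and the shared feature that the choice of genes did not use.
H2-Aa (chr17:34287861-34287910, minus strand): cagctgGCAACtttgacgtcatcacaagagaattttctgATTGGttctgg
H2-Eb1 (chr17:34305770-34305818, plus strand): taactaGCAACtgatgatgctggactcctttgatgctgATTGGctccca
H2-DMb1 (chr17:34153091-34153140, plus strand): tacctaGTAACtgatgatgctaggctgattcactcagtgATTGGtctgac
H2-Oa (chr17:34092297-34092346, plus strand): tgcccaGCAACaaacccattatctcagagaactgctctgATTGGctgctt
H2-Ob (chr17:34238812-34238858, plus strand): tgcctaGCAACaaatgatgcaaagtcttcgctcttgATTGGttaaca

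The spacing between the motifs was 28 bases in H2-Aa, H2-DMb1 and H2-Oa, 27 in H2-Eb1 and 25 in H2-Ob. In all 5 the pair lay on the gene's own strand, with GNAAC beginning between 94 and 76 bases before the start (positions -94 to -76) and ATTGG beginning between positions -61 and -43. Neither of the windows of H2-DMa held it. Of 32851 promoter windows of the same length, 2.67% held the pair on either strand, and 1.33% on the strand of the gene. ATTGG alone was present in 37.4% of windows and GNAAC alone in 84.8%. A match says that the letters are there, not that a factor binds there.

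**Figure D1:**
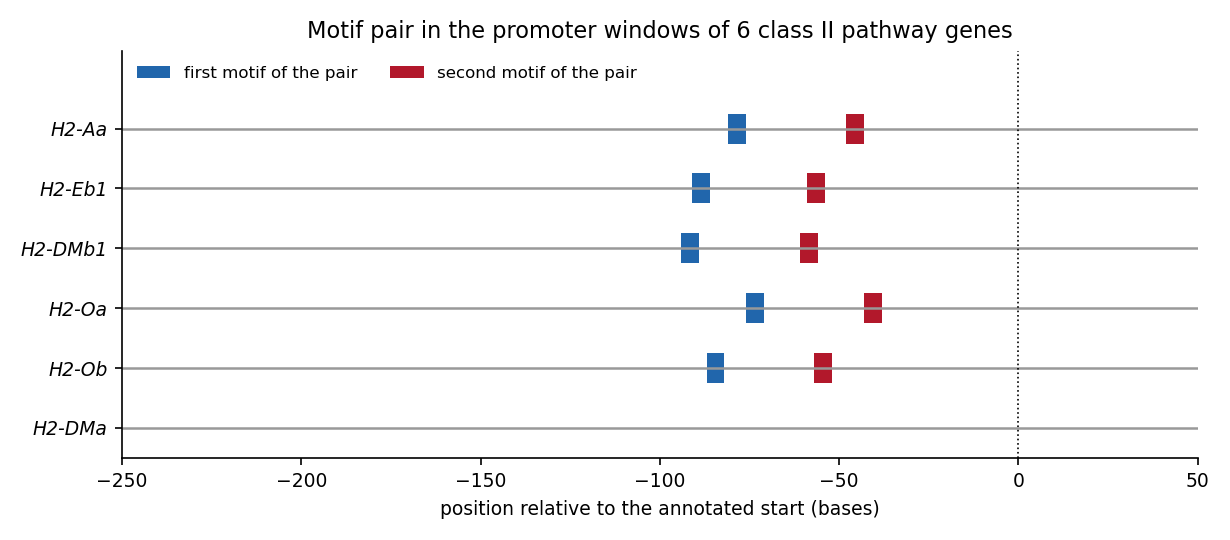
Position of the motif pair in the promoter windows of the 6 genes with an entry, in bases relative to the annotated start (dotted line). Blue boxes mark the first motif (GNAAC) and red boxes the second (ATTGG); 5 genes hold the pair at like distances and H2-DMa holds none.

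The libraries held between 6892728 and 23705975 counts in genes, and between 10837 and 13969 genes with a count. Values are given as CPM, the counts per 1000000 counts of a library, scaled by TMM factors, and 3 counts correspond to between 0.127 and 0.435 CPM before that scaling. The CLP genes Il7r, Flt3, Kit, Dntt and Rag1 summed to between 4674 and 7811 CPM in every library. Gfra2 stood at 286, 514 and 364 CPM in Ly6D+Gfra2+ libraries, at 0.195 to 14.7 CPM in Ly6D+Gfra2- libraries and at 0 to 5.49 CPM in Ly6D-Gfra2- libraries. Ly6d ranged between 171 and 283 CPM in Ly6D+Gfra2+ libraries and between 158 and 506 CPM in Ly6D+Gfra2- libraries. In the Ly6D-Gfra2- group it lay between 0.622 and 8.29 CPM in 5 libraries, but reached 213 CPM in a sixth, the library labelled Ly6D-Gfra2- replicate 3, which goes against its label. For none of the 9 genes did leaving that library out change a call or turn an overlap between groups into a separation, and where it did so for another gene or marker sum named here, this is said. The share of all genes that separate once that library is left out was not counted. How common such separations are is therefore not known. Library names begin with P or T, a prefix that the labels do not explain. Prefix T covers all Ly6D+Gfra2+ libraries, replicates 5 and 6 of Ly6D+Gfra2- and replicates 4 to 6 of Ly6D-Gfra2-, and the prefix was a term in the model.

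Class II pathway transcripts were present in all 3 compartments, but very unevenly between genes. H2-Ob and H2-DMa took between 79.8% and 95.7% of the scaled counts that fell on the 9 genes in each library, whereas the classical chain H2-Eb1 and the coactivator Ciita were near or below the detection limit in several. None of the 9 genes passed the test (edgeR's quasi-likelihood test, Benjamini-Hochberg adjusted p under 0.05 over all genes tested) in any of the 3 comparisons. Of all genes tested, 0.409% were called in Ly6D+Gfra2+ against Ly6D+Gfra2-, 1.39% in Ly6D+Gfra2+ against Ly6D-Gfra2- and 0% in Ly6D+Gfra2- against Ly6D-Gfra2-. An unadjusted p under 0.05 was found for 3 of the 9 genes and 1677 of all 12722 genes in Ly6D+Gfra2+ against Ly6D+Gfra2-. It was found for 2 of the 9 and 1953 of all genes in Ly6D+Gfra2+ against Ly6D-Gfra2-, and for 2 of the 9 and 599 of all genes in Ly6D+Gfra2- against Ly6D-Gfra2-. DESeq2 called 4.46%, 6.73% and 0.164% of genes in Ly6D+Gfra2+ against Ly6D+Gfra2-, Ly6D+Gfra2+ against Ly6D-Gfra2- and Ly6D+Gfra2- against Ly6D-Gfra2-, and of the 9 it called H2-Ob alone, in the comparison of Ly6D+Gfra2+ with Ly6D-Gfra2-. Limma voom called 0.197%, 0.857% and 0.00786% of genes in these comparisons and none of the 9. The comparisons share groups and are not independent of each other. In these bulk libraries, fewer cells that make a transcript and less transcript per cell cannot be told apart.

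**Figure D2:**
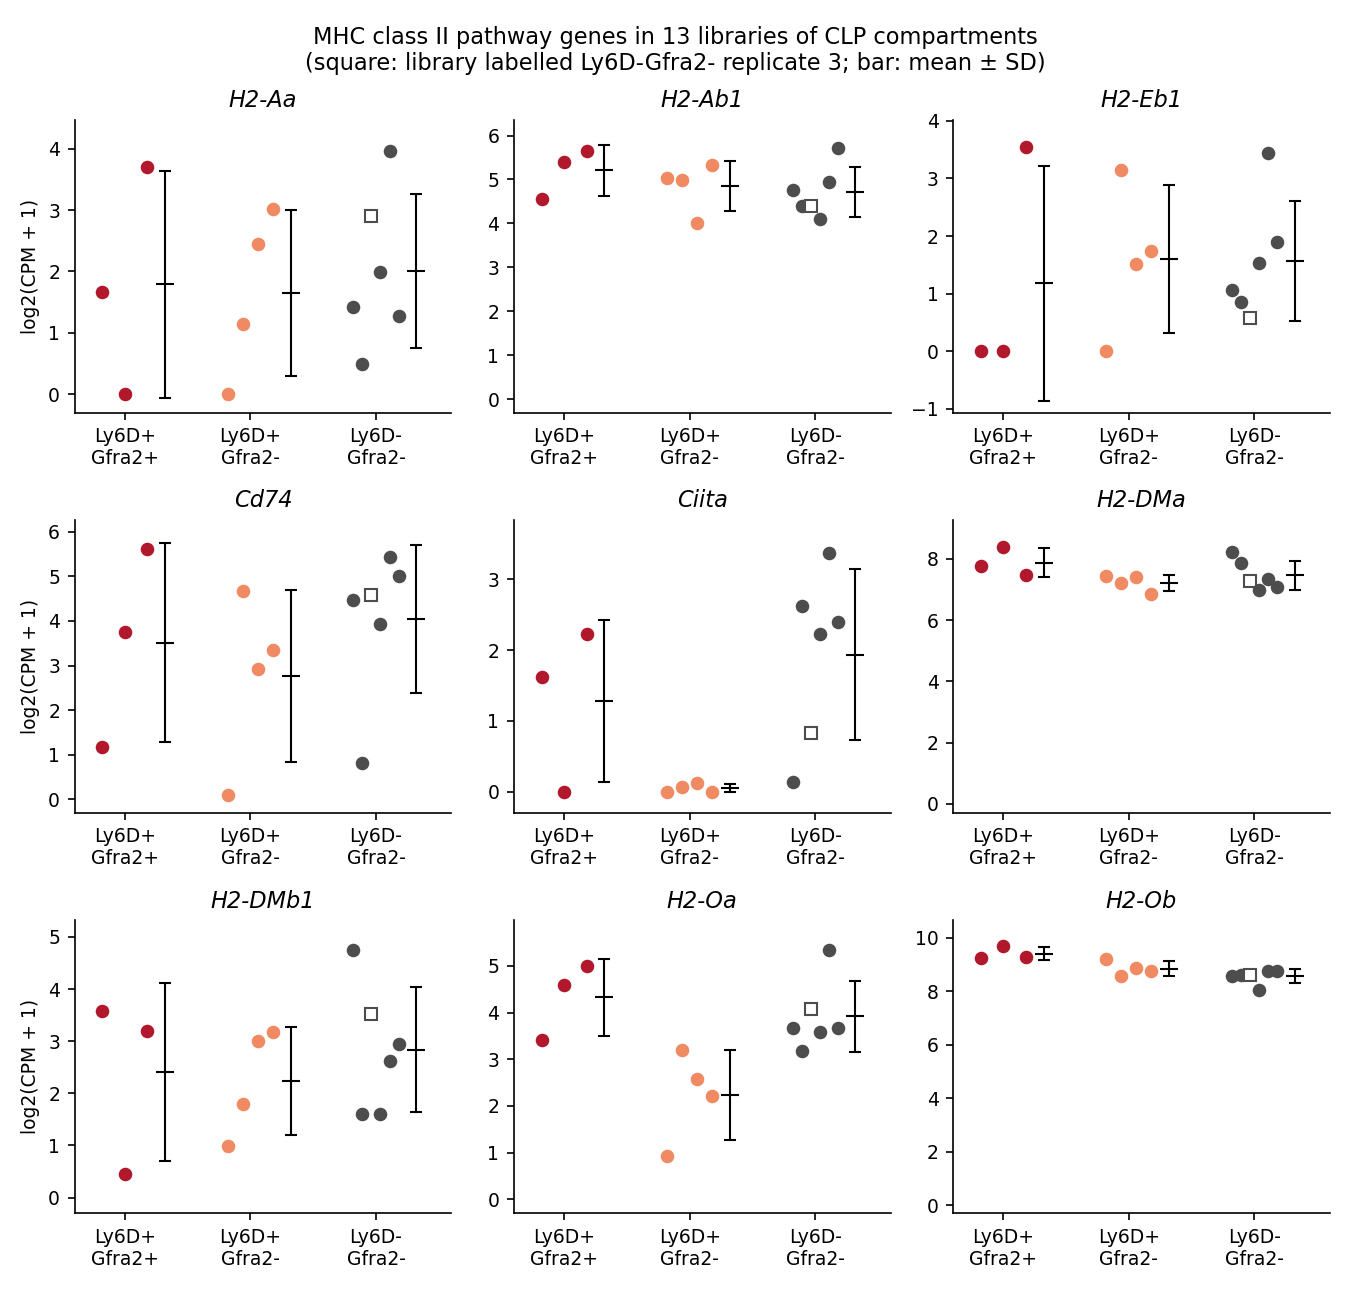
Level of each of the 9 genes in each library on the log2(CPM + 1) scale, with Ly6D+Gfra2+ at the left, Ly6D+Gfra2- in the middle and Ly6D-Gfra2- at the right; points are libraries, and bars give mean ± SD on that scale (n = 3, 4 and 6). H2-Ob and H2-DMa are high in every library, Ciita is near 0 in all 4 Ly6D+Gfra2- libraries, and the other genes spread widely within groups.

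The classical chains carry the peptide. H2-Ab1 (chr17:34263227-34269418, 6 exons), the beta chain of I-A, was at 22.5, 41.4 and 49.4 CPM in Ly6D+Gfra2+ libraries, against 31.8, 30.9, 15.2 and 39.0 CPM in Ly6D+Gfra2- libraries. In Ly6D-Gfra2- libraries it had a lowest value of 16.2, a median of 23.2 and a highest value of 51.2 CPM. The 3 ranges overlapped almost completely, and H2-Ab1 was the steadiest of the classical chains. Its fitted log2 fold change was 0.23 ± 0.62 (SE) in Ly6D+Gfra2+ against Ly6D+Gfra2- (adjusted p = 0.918) and 0.37 ± 0.56 in Ly6D+Gfra2+ against Ly6D-Gfra2- (adjusted p = 0.829).

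H2-Aa (chr17:34282744-34287823, 5 exons), the alpha chain that pairs with H2-Ab1, was lower per length and less even. Its levels stood at 2.17, 0 and 12.0 CPM in Ly6D+Gfra2+ libraries, against 0, 1.22, 4.48 and 7.1 CPM in Ly6D+Gfra2- libraries. In Ly6D-Gfra2- libraries it ran from 0.400 CPM through a median of 2.33 to 14.5 CPM. Each group thus held libraries at or close to 0 beside libraries of several CPM, and the SD within Ly6D+Gfra2+ (6.40 CPM) exceeded its mean (4.73 CPM, n = 3). The fitted log2 fold change was 0.21 ± 1.67 in Ly6D+Gfra2+ against Ly6D+Gfra2- (adjusted p = 0.973) and -0.87 ± 1.77 in Ly6D+Gfra2+ against Ly6D-Gfra2- (adjusted p = 0.878), and both changed sign in other fits.

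H2-Eb1 (chr17:34305867-34316674, 6 exons), the beta chain left without its partner in this strain, was detected in only 1 Ly6D+Gfra2+ library, with 10.6 CPM (98 counts) in replicate 6 and 0 in replicates 4 and 5. Ly6D+Gfra2- libraries held 0, 7.86, 1.87 and 2.33 CPM. Ly6D-Gfra2- libraries ran from 0.486 CPM through a median of 1.5 to 9.91 CPM. Levels between groups overlapped, and the sign of the fitted difference turned with the setting in all 3 comparisons. Without Ly6D+Gfra2+ replicate 6, that group had no H2-Eb1 count, which allows up to 0.323 CPM in replicate 4 and 0.307 CPM in replicate 5 (3 counts, before scaling) by counting error alone.

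Cd74 (chr18:60803849-60812652, 9 exons) encodes the invariant chain. Its levels were 1.26, 12.6 and 48.1 CPM in Ly6D+Gfra2+ libraries, and 0.0649, 24.3, 6.62 and 9.23 CPM in Ly6D+Gfra2- libraries. Ly6D-Gfra2- libraries ranged from 0.756 CPM through a median of 22.0 to 42.4 CPM. Within each group the highest library exceeded the lowest by more than an order of magnitude, a spread wider than the differences between the group means. The fitted log2 fold change was 0.81 ± 1.48 in Ly6D+Gfra2+ against Ly6D+Gfra2- (adjusted p = 0.868) and -0.22 ± 1.27 in Ly6D+Gfra2+ against Ly6D-Gfra2- (adjusted p = 0.961). The annotation overlaps Mir5107 by 12 bases.

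Ciita (chr16:10480014-10531064, 19 exons) was the member with the largest fitted difference between Ly6D+Gfra2- and Ly6D-Gfra2- libraries. Ly6D+Gfra2+ libraries held 2.06, 0 and 3.68 CPM. Ly6D+Gfra2- libraries held 0, 0.0507, 0.0933 and 0 CPM, which is 2 counts over the 4 libraries together. Ly6D-Gfra2- libraries ran from 0.0994 CPM through a median of 3.98 to 9.33 CPM, with 310 counts over 6 libraries. Every Ly6D+Gfra2- library was lower in CPM than every Ly6D-Gfra2- library, though only just: the lowest Ly6D-Gfra2- value, in replicate 1, is a count of 1. The highest Ly6D+Gfra2- value, in replicate 5, is also a count of 1. The groups thus tie in counts there, and the lack of overlap rests on the scaling by library size. Of all genes tested, 0.951% were lower without overlap in this comparison.

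The ratio of pooled Ciita counts, each over its pooled TMM-scaled library totals, was 106 in favour of Ly6D-Gfra2- over Ly6D+Gfra2-, with an exact 95% interval of 29.1 to 880 that covers counting error only. The fitted log2 fold change of Ly6D+Gfra2- against Ly6D-Gfra2- was -6.21 ± 1.86 (adjusted p = 0.807), a size that depends on the prior count because Ly6D+Gfra2- is so close to 0. The call was not made in any other fit, with adjusted p between 0.0915 and 1. The value was -6.57 within libraries of prefix T, -5.90 within libraries of prefix P, and -6.41 (adjusted p = 0.579) once the library labelled replicate 3 was left out.

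In Ly6D+Gfra2+ against Ly6D+Gfra2-, 52 pooled Ciita counts stood against 2, a ratio of 55.0 with a counting interval of 14.5 to 466.2. Both groups held a library at 0, so they overlapped, and the fitted difference of 4.74 ± 1.97 did not pass (adjusted p = 0.313). Against Ly6D-Gfra2- the fitted difference of Ly6D+Gfra2+ was -1.47 ± 1.67 (adjusted p = 0.75). The exons of Ciita overlap those of Dexi on the opposite strand by 111 bases, and since the counting is not stated to use strand, reads of the 2 genes cannot be told apart there.

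**Figure D3:**
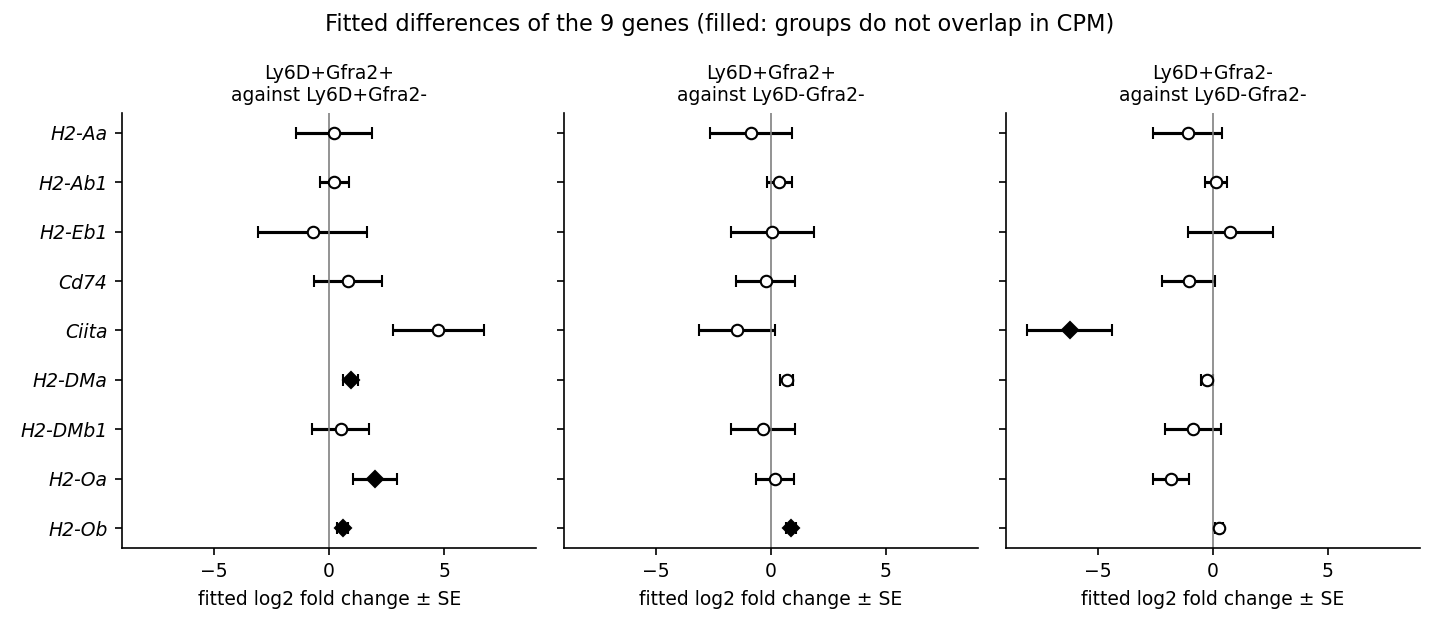
Fitted log2 fold change ± SE of the 9 genes in the 3 comparisons, Ly6D+Gfra2+ against Ly6D+Gfra2- at the left, Ly6D+Gfra2+ against Ly6D-Gfra2- in the middle and Ly6D+Gfra2- against Ly6D-Gfra2- at the right. Filled diamonds are genes whose groups do not overlap in CPM. For Ciita at the right this rests on the scaling by library size, since the nearest libraries of the groups tie in counts. No gene reached an adjusted p under 0.05, and H2-Ob and H2-DMa have the shortest bars.

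H2-M edits the peptide. H2-DMa (chr17:34119693-34139101, 6 exons), its alpha chain, was at 215, 338 and 177 CPM in Ly6D+Gfra2+ libraries, against 172, 149, 167 and 115 CPM in Ly6D+Gfra2- libraries. In Ly6D-Gfra2- libraries it had a lowest value of 127, a median of 158 and a highest value of 298 CPM. All 3 Ly6D+Gfra2+ libraries were above all 4 Ly6D+Gfra2- libraries, by a narrow margin between replicate 6 of the Ly6D+Gfra2+ group and replicate 1 of the Ly6D+Gfra2- group, and they overlapped with Ly6D-Gfra2-. H2-DMa is 1 of 3 members, with H2-Oa and H2-Ob, that were higher without overlap in Ly6D+Gfra2+ against Ly6D+Gfra2-, where 4% of all genes tested were. Its fitted log2 fold change there was 0.93 ± 0.31 (adjusted p = 0.21), and 0.78 (adjusted p = 0.517) within libraries of prefix T. Against Ly6D-Gfra2- it was 0.68 ± 0.30 (adjusted p = 0.281), and 0.65 (adjusted p = 0.334) without the library labelled replicate 3.

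H2-DMb1 (chr17:34153191-34160229, 6 exons), the beta chain of H2-M, was far below H2-DMa per length. It stood at 10.9, 0.359 and 8.12 CPM in Ly6D+Gfra2+ libraries, against 0.973, 2.48, 6.99 and 8.01 CPM in Ly6D+Gfra2- libraries. Ly6D-Gfra2- libraries ran from 2.02 CPM through a median of 5.93 to 25.7 CPM. The groups overlapped and no difference exceeded the spread within them. The fitted log2 fold change was 0.51 ± 1.23 in Ly6D+Gfra2+ against Ly6D+Gfra2- (adjusted p = 0.908). H2-DMb1 has a closely similar neighbour, H2-DMb2, and reads that match both may be split between them or dropped by the counting, so both levels are uncertain. H2-DMb2 was at 2.63, 0 and 0.974 CPM in Ly6D+Gfra2+ libraries, at 0.389, 8.92, 1.77 and 5.78 CPM in Ly6D+Gfra2- libraries and at 0.133 to 6.61 CPM in Ly6D-Gfra2- libraries.

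H2-O restrains H2-M. H2-Ob (chr17:34238905-34245908, 6 exons), its beta chain, had the highest median level per length of the 9 genes in every group. It was at 608, 818 and 611 CPM in Ly6D+Gfra2+ libraries, against 586, 374, 464 and 427 CPM in Ly6D+Gfra2- libraries. Ly6D-Gfra2- libraries had a lowest value of 261, a median of 389 and a highest value of 434 CPM. Every Ly6D+Gfra2+ library was above every library of both other groups. The means were 679 ± 120 CPM in Ly6D+Gfra2+ (SD, n = 3), 463 ± 89.9 CPM in Ly6D+Gfra2- (n = 4) and 381 ± 62.8 CPM in Ly6D-Gfra2- (n = 6).

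Against Ly6D-Gfra2- the fitted log2 fold change of H2-Ob in Ly6D+Gfra2+ was 0.87 ± 0.22 (adjusted p = 0.0555), just outside the threshold. H2-Ob was the only member higher without overlap in this comparison, where 4.03% of all genes tested were. Over 22 other fits the value lay between 0.59 and 0.96, positive in all 22, with adjusted p between 0.00819 (DESeq2) and 0.186. It was called with no prefix term (adjusted p = 0.0365, with 2.03% of all genes called), with no filter on low counts (0.0377, with 1.97% called), by DESeq2, without Ly6D+Gfra2- replicate 2 (0.0487) and without Ly6D+Gfra2+ replicate 6 (0.0472). Leaving out these libraries, 146 of 12608 and 372 of 13289 genes were called, beside 177 of 12722 in the main fit. Within libraries of prefix T the value of H2-Ob was 0.85 (adjusted p = 0.183), and with the library labelled replicate 3 left out it was 0.87 (adjusted p = 0.078). Against Ly6D+Gfra2- the value was 0.59 ± 0.23 (adjusted p = 0.287). Ly6D+Gfra2- against Ly6D-Gfra2- gave 0.28 ± 0.18 (adjusted p = 0.999).

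H2-Oa (chr17:34092379-34095234, 5 exons), the alpha chain of H2-O, had its lowest levels in the Ly6D+Gfra2- group. It stood at 9.61, 23.0 and 30.8 CPM in Ly6D+Gfra2+ libraries, against 0.908, 8.21, 4.94 and 3.65 CPM in Ly6D+Gfra2- libraries. Ly6D-Gfra2- libraries ran from 8.0 CPM through a median of 11.7 to 39.8 CPM. The Ly6D+Gfra2+ libraries lay above all Ly6D+Gfra2- libraries, and 3 of the 4 Ly6D+Gfra2- libraries lay below every Ly6D-Gfra2- library, with replicate 2 overlapping by a small margin. The fitted log2 fold change was 2.0 ± 0.96 in Ly6D+Gfra2+ against Ly6D+Gfra2- (adjusted p = 0.385) and 2.29 (adjusted p = 0.516) within libraries of prefix T.

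In Ly6D+Gfra2- against Ly6D-Gfra2-, H2-Oa gave -1.81 ± 0.77 (adjusted p = 0.999). This was negative in all 23 other fits, between -2.74 and -1.37, and was -1.73 without the library labelled replicate 3. In Ly6D+Gfra2+ against Ly6D-Gfra2- it was 0.19 ± 0.84 (adjusted p = 0.951). The exons of H2-Oa overlap those of BC051537 on the opposite strand by 321 bases, where reads of the 2 genes cannot be told apart.

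Taken over the 9 genes, the fitted log2 fold changes were positive for 8 and negative for 1 in Ly6D+Gfra2+ against Ly6D+Gfra2-, with a median of 0.59, beside 0.025 over all genes tested. In Ly6D+Gfra2+ against Ly6D-Gfra2- 5 were positive and 4 negative, with a median of 0.06 beside 0.013. In Ly6D+Gfra2- against Ly6D-Gfra2- 3 were positive and 6 negative, with a median of -0.85 beside -0.0058. These are counts of fitted values, of which none passed the test.

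To compare genes with each other, CPM was divided by transcript length. Per kilobase, H2-Ob led in every group, followed by H2-DMa and then by H2-Ab1. The median level of H2-Ob was 229 CPM per kb in Ly6D+Gfra2+, 167 in Ly6D+Gfra2- and 146 in Ly6D-Gfra2-. That of H2-DMa was 130 CPM per kb in Ly6D+Gfra2+, 95.4 in Ly6D+Gfra2- and 95.05 in Ly6D-Gfra2-, and that of H2-Ab1 was 34.1 in Ly6D+Gfra2+, 25.9 in Ly6D+Gfra2- and 19.1 in Ly6D-Gfra2-. H2-DMa and H2-Ab1 did not overlap within any group. H2-Ob and H2-DMa did not overlap in Ly6D+Gfra2+ or Ly6D+Gfra2- libraries but did in Ly6D-Gfra2- libraries. From H2-Ab1 downwards, neighbours in the order overlapped in every group. In Ly6D+Gfra2+ H2-Oa (21.1) came before Cd74 (8.90), H2-DMb1 (5.78), H2-Aa (1.93), Ciita (0.521) and H2-Eb1 (0). In Ly6D+Gfra2- Cd74 (5.62) came before H2-Oa (3.95), and Ciita (0.00641) was last. In Ly6D-Gfra2- Cd74 (15.6) came before H2-Oa (10.8), and H2-Eb1 (0.897) was last.

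The chains of each dimer were at unequal levels per kilobase. H2-Ob exceeded H2-Oa in 13 of 13 libraries, by ratios between 4.45 and 263 with a median of 14.8. H2-DMa exceeded H2-DMb1 in 13 of 13 libraries, with ratios between 9.81 and 149 (median 19.4) in the 12 libraries with more than 3 H2-DMb1 counts. H2-Ab1 exceeded H2-Aa in 13 of 13 libraries, with ratios between 1.91 and 46.9 (median 5.12) in the 11 libraries with an H2-Aa count.

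**Figure D4:**
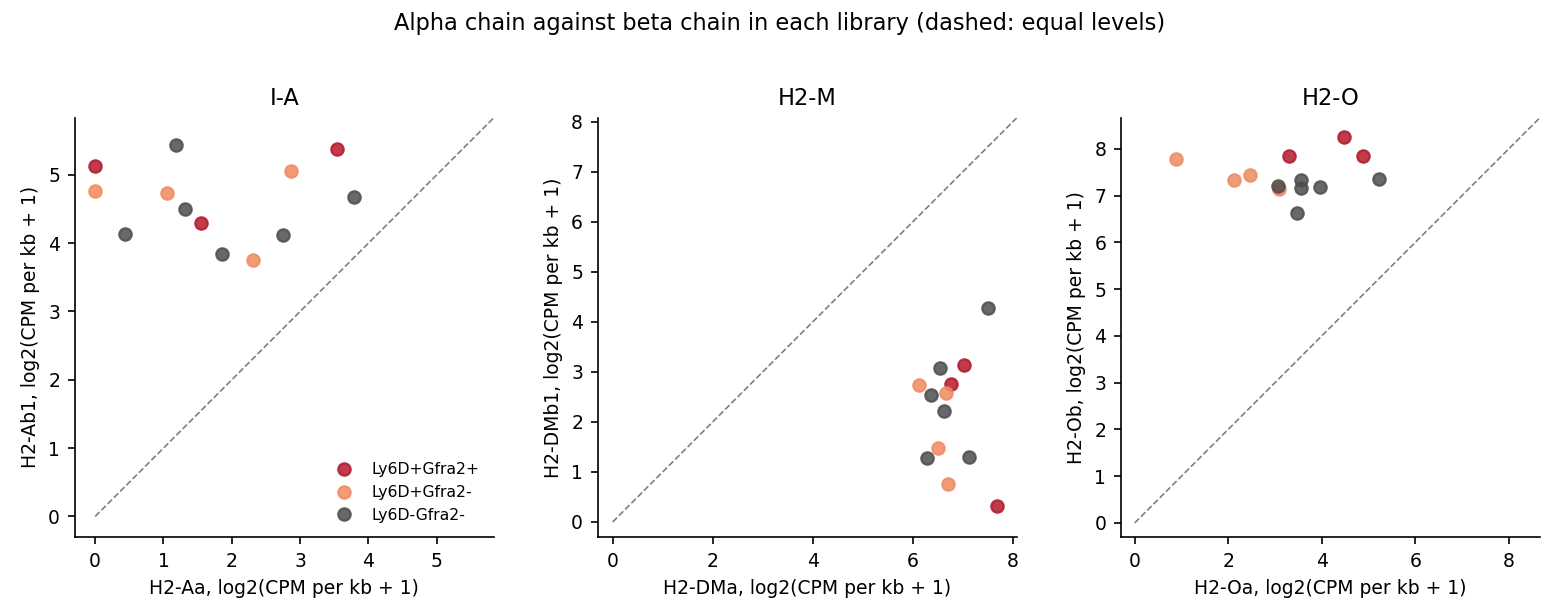
Alpha chain (horizontal) against beta chain (vertical) of I-A, H2-M and H2-O in each of the 13 libraries, both as log2(CPM per kb + 1), with the dashed line at equal levels. All libraries of every group lie above the line for I-A and H2-O and below it for H2-M.

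The low members did not all have their extremes in the same libraries. The summed CPM of H2-Aa, H2-Eb1, Cd74, Ciita and H2-Oa was highest in Ly6D-Gfra2- replicate 5 (116 CPM) and Ly6D+Gfra2+ replicate 6 (105 CPM). It was lowest in Ly6D+Gfra2- replicate 1 (0.973 CPM), where 3 of the 9 genes were at 0 and 11636 genes had a count. H2-DMb1, which is not in this sum, was highest in Ly6D-Gfra2- replicate 1 (25.7 CPM) and lowest in Ly6D+Gfra2+ replicate 5 (0.359 CPM). Ly6D+Gfra2+ replicate 5, the library with the fewest genes detected (10837), also had 3 members at 0. Ly6D+Gfra2+ replicate 6 and Ly6D-Gfra2- replicate 5 each held the highest value of their group for 6 of the 9 genes. The part that the number of genes detected has in these values was not tested.

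Across the 13 libraries, the highest Pearson's r of log2(CPM + 1) between members was 0.72, for Cd74 with H2-Oa. Next came 0.70 for Cd74 with H2-Eb1, 0.64 for H2-Aa with H2-Eb1 and 0.59 for H2-Aa with Cd74. The chains of each dimer had r near 0: -0.013 for H2-Aa with H2-Ab1, -0.071 for H2-DMa with H2-DMb1 and 0.075 for H2-Oa with H2-Ob. Ciita had r between -0.24 (H2-Ob) and 0.55 (H2-Oa) with the other members, and 0.21 with Cd74. The abundant chains H2-DMa and H2-Ob had r = 0.52 with each other, while H2-DMa had r = -0.48 with H2-Aa and -0.44 with H2-Eb1. These values are descriptions over 13 libraries that share groups and differ in depth. By the same measure, over 11087 genes whose highest group averaged 5 CPM or more, the genes most like Cd74 were Fbxl17 (r = 0.89), Cul2 (0.89), N4bp1 (0.86), Xaf1 (0.85) and Hoxa5 (0.85). Those most like Ciita were Zfp94 (0.91), Rnf114 (0.82), Inpp5b (0.82), Nhsl2 (0.81) and Ano8 (0.78). Those most like the mean of the 9 genes were Cpne1 (0.92), Eif3m (0.91), Nsun4 (0.90), Mrpl12 (0.87) and Ahi1 (0.83).

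H2-Eb2 (chr17:34325503-34341410, 5 exons), a neighbour and paralog of H2-Eb1, followed another pattern than H2-Eb1. It was at 22.9, 37.8 and 12.8 CPM in Ly6D+Gfra2+ libraries, against 2.72, 0, 5.5 and 0.811 CPM in Ly6D+Gfra2- libraries. Ly6D-Gfra2- libraries ranged from 0 CPM through a median of 0.960 to 4.17 CPM. Every Ly6D+Gfra2+ library was above every library of the other groups. Of all genes tested, 4.03% were higher without overlap against Ly6D-Gfra2- and 4% against Ly6D+Gfra2-. The fitted log2 fold change was 4.44 ± 1.83 against Ly6D-Gfra2- (adjusted p = 0.253) and 3.59 ± 1.65 against Ly6D+Gfra2- (adjusted p = 0.361), and no other fit made a call. H2-Ea was not analysed here.

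Of 21 genes that regulate class II transcription, including the RFX and NF-Y subunits, interferon-gamma signalling genes and lineage factors, 2 passed the test, Ebf1 and Irf4, both in Ly6D+Gfra2+ against Ly6D-Gfra2- and both higher, as were 0.928% of all genes tested. In the other comparisons 0 of 21 passed. The list was chosen with earlier results of these data known, so its count of calls cannot be read as an enrichment over all genes. The median log2 fold change of the list was 0.20 in Ly6D+Gfra2+ against Ly6D+Gfra2-, 0.23 in Ly6D+Gfra2+ against Ly6D-Gfra2- and 0.099 in Ly6D+Gfra2- against Ly6D-Gfra2-.

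Ebf1, a founding transcription factor of the B lineage, was at 890, 875 and 753 CPM in Ly6D+Gfra2+ libraries, against 165, 92.6, 161 and 128 CPM in Ly6D+Gfra2- libraries. In Ly6D-Gfra2- libraries it was at 9.2 to 42.0 CPM in 5 libraries and at 127 CPM in the library labelled replicate 3. Ebf1 rose in Ly6D+Gfra2+ against Ly6D-Gfra2- by 4.66 ± 0.69 (adjusted p = 0.00325), and was called in 21 of 22 other fits, with no adjusted p given by DESeq2. Against Ly6D+Gfra2- the value was 2.80 ± 0.68 (adjusted p = 0.0814), and without the library labelled replicate 3 this comparison passed (2.18, adjusted p = 0.0269). In Ly6D+Gfra2- against Ly6D-Gfra2- the value was 1.86 ± 0.53 (adjusted p = 0.807), and 2.88 (adjusted p = 0.000719) without that library.

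Irf4, a factor that acts in B cells and plasma cells, was at 104, 90.7 and 61.2 CPM in Ly6D+Gfra2+ libraries, against 19.2, 10.9, 14.5 and 48.7 CPM in Ly6D+Gfra2- libraries. Ly6D-Gfra2- libraries ranged from 1.07 CPM through a median of 3.78 to 12.6 CPM. The highest is the library labelled replicate 3, and the other 5 ended at 8.29 CPM, below every Ly6D+Gfra2- library. It rose in Ly6D+Gfra2+ against Ly6D-Gfra2- by 4.0 ± 0.88 (adjusted p = 0.0336), and the call held in 13 of 22 other fits, among them the fit without the library labelled replicate 3 (4.26, adjusted p = 0.0135). It was lost with library size alone (adjusted p = 0.0618) and with only the groups compared in the fit (0.0698). It was also lost without Ly6D+Gfra2+ replicate 4 (0.0595) or 5 (0.0599), without Ly6D+Gfra2- replicate 5 (0.0607), and without Ly6D-Gfra2- replicate 1 (0.0578), 4 (0.111), 5 (0.108) or 6 (0.077).

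Irf8, which is needed for dendritic cell development and also acts in B cells, had its highest mean in Ly6D+Gfra2- libraries. It was at 93.9, 180 and 265 CPM in Ly6D+Gfra2+ libraries, against 593, 831, 706 and 901 CPM in Ly6D+Gfra2- libraries, without overlap. In this comparison 4% of all genes tested were higher without overlap, and the share that were lower was not counted. Ly6D-Gfra2- libraries ranged from 173 CPM through a median of 315 to 891 CPM, the last in the library labelled replicate 3. The other 5 ended at 561 CPM, below every Ly6D+Gfra2- library. In Ly6D+Gfra2- against Ly6D-Gfra2- Irf8 gave 1.2 ± 0.35 (adjusted p = 0.807), and 1.40 (adjusted p = 0.204) without that library. The fitted difference of Ly6D+Gfra2+ against Ly6D+Gfra2- was -1.69 ± 0.43 (adjusted p = 0.0986). It passed by DESeq2 (0.00692), with no filter (0.00471) and without Ly6D+Gfra2+ replicate 6 (0.0478). These fits called 545 of 12231, 164 of 16162 and 184 of 13289 genes in this comparison, beside 52 of 12722 in the main fit.

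Ifngr2, a chain of the interferon-gamma receptor, was at 138, 126 and 90.3 CPM in Ly6D+Gfra2+ libraries, at 37.2 to 63.0 CPM in Ly6D+Gfra2- libraries and at 24.5 to 61.6 CPM in Ly6D-Gfra2- libraries. The difference was 1.46 ± 0.42 against Ly6D-Gfra2- (adjusted p = 0.102), and 2 of 22 other fits called it. Rfx5, the DNA-binding subunit of RFX, was named after its values had been seen. It was at 210, 213 and 56.1 CPM in Ly6D+Gfra2+ libraries, at 34.1 to 94.0 CPM in Ly6D+Gfra2- libraries and at 55.2 to 84.2 CPM in Ly6D-Gfra2- libraries. Replicate 6 of the Ly6D+Gfra2+ group, the library with the most Cd74 and H2-Oa in that group, held the low Rfx5 value. Without it, Rfx5 passed against Ly6D-Gfra2- (1.66, adjusted p = 0.0314), and with it the difference was 1.25 ± 0.43 (adjusted p = 0.175). Without that library, 372 of 13289 genes passed in this comparison, beside 177 of 12722 with all libraries.

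Of 17 genes of endosomal processing and class II turnover, 16 were tested and 0 passed in any comparison, with medians of -0.16 in Ly6D+Gfra2+ against Ly6D+Gfra2-, -0.21 in Ly6D+Gfra2+ against Ly6D-Gfra2- and 0.054 in Ly6D+Gfra2- against Ly6D-Gfra2-. Ctsb, an endosomal protease, was at 140, 145 and 77.4 CPM in Ly6D+Gfra2+ libraries, against 288, 203, 364 and 274 CPM in Ly6D+Gfra2- libraries, without overlap. The share of all genes lower without overlap in this comparison was not counted. Ly6D-Gfra2- libraries held 102 to 287 CPM, the highest in the library labelled replicate 3, and the other 5 ended at 200.2 CPM, below every Ly6D+Gfra2- library. The difference of Ly6D+Gfra2+ against Ly6D+Gfra2- was -1.13 ± 0.38 (adjusted p = 0.21). Ctsh, another cathepsin, averaged 3.90 CPM in Ly6D+Gfra2+ libraries, 42.7 CPM in Ly6D+Gfra2- libraries and 15.4 CPM in Ly6D-Gfra2- libraries, a difference of -2.81 ± 1.13 between Ly6D+Gfra2+ and Ly6D+Gfra2- (adjusted p = 0.297). Its level in the library labelled Ly6D-Gfra2- replicate 3 was 40.5 CPM, and the other 5 libraries of that group reached at most 20.4 CPM, below the lowest Ly6D+Gfra2- library at 26.7 CPM. Ctsl, a protease that trims Cd74 in thymic epithelium, averaged 25.4 CPM in Ly6D+Gfra2+ libraries, 24.7 CPM in Ly6D+Gfra2- libraries and 9.67 CPM in Ly6D-Gfra2- libraries, and none of its differences passed. Ap2m1, an adaptor subunit of endocytosis, gave -1.40 ± 0.75 in Ly6D+Gfra2+ against Ly6D+Gfra2- (adjusted p = 0.442). Marchf1, a ubiquitin ligase that removes surface class II, and Cd9, a tetraspanin, averaged under 1 CPM in Ly6D+Gfra2+ libraries and under 2 CPM in Ly6D-Gfra2- libraries.

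Of 5 costimulatory and adhesion genes that accompany class II on presenting cells, Cd80 and Cd40 were below the filter, and 0 of the 3 tested passed. Cd86 was at 0 to 6.93 CPM in Ly6D+Gfra2+ libraries, at 0 to 9.84 CPM in Ly6D+Gfra2- libraries and at 0.578 to 22.6 CPM in Ly6D-Gfra2- libraries. Icam1 lay between 18.6 and 42.8 CPM in Ly6D+Gfra2+ libraries, between 11.7 and 45.2 CPM in Ly6D+Gfra2- libraries and between 13.5 and 34.9 CPM in Ly6D-Gfra2- libraries. Icosl lay between 5.26 and 74.8 CPM in Ly6D+Gfra2+ libraries, between 0.0649 and 35.4 CPM in Ly6D+Gfra2- libraries and between 7.49 and 23.5 CPM in Ly6D-Gfra2- libraries. All 3 overlapped between groups.

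The MHC class I pathway served as the nearest set for comparison. Of its 14 genes, 0 passed in any comparison, and 12 had a positive value in Ly6D+Gfra2+ against Ly6D+Gfra2- and 12 in Ly6D+Gfra2+ against Ly6D-Gfra2-, with a median log2 fold change of 0.31 in both. The median over all genes tested was 0.025 in the first and 0.013 in the second. H2-K1, a classical class I heavy chain, averaged 1925 CPM in Ly6D+Gfra2+ libraries, 1075 CPM in Ly6D+Gfra2- libraries and 1203 CPM in Ly6D-Gfra2- libraries. Its difference against Ly6D+Gfra2- was 0.64 ± 0.14 (adjusted p = 0.0606) and against Ly6D-Gfra2- 0.48 ± 0.13 (adjusted p = 0.0888). The first of these passed in 4 and the second in 2 of 22 other fits. Over the other fits, 8 to 545 of all genes were called in the first comparison and 49 to 794 in the second. The main fit called 52 and 177. Nlrc5, the class I counterpart of Ciita, averaged 317 CPM in Ly6D+Gfra2+ libraries, 155 CPM in Ly6D+Gfra2- libraries and 147 CPM in Ly6D-Gfra2- libraries, with no overlap between Ly6D+Gfra2+ and either other group. Of all genes tested, 4% were higher without overlap against Ly6D+Gfra2- and 4.03% against Ly6D-Gfra2-. The difference of Nlrc5 was 0.96 ± 0.24 against Ly6D-Gfra2- (adjusted p = 0.0622) and 0.86 ± 0.27 against Ly6D+Gfra2- (adjusted p = 0.186), and the first passed in 3 of 22 other fits. B2m, the light chain of class I, gave 0.51 ± 0.15 against Ly6D+Gfra2- (adjusted p = 0.174). H2-D1, another class I heavy chain, gave 0.52 ± 0.21 against Ly6D-Gfra2- (adjusted p = 0.242). In Ly6D+Gfra2- against Ly6D-Gfra2- the median of the list was 0.019. Pdia3 gave 0.34 ± 0.19, H2-K1 -0.16 ± 0.11 and Tapbp 0.47 ± 0.37 there (adjusted p = 0.999 for each).

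**Figure D5:**
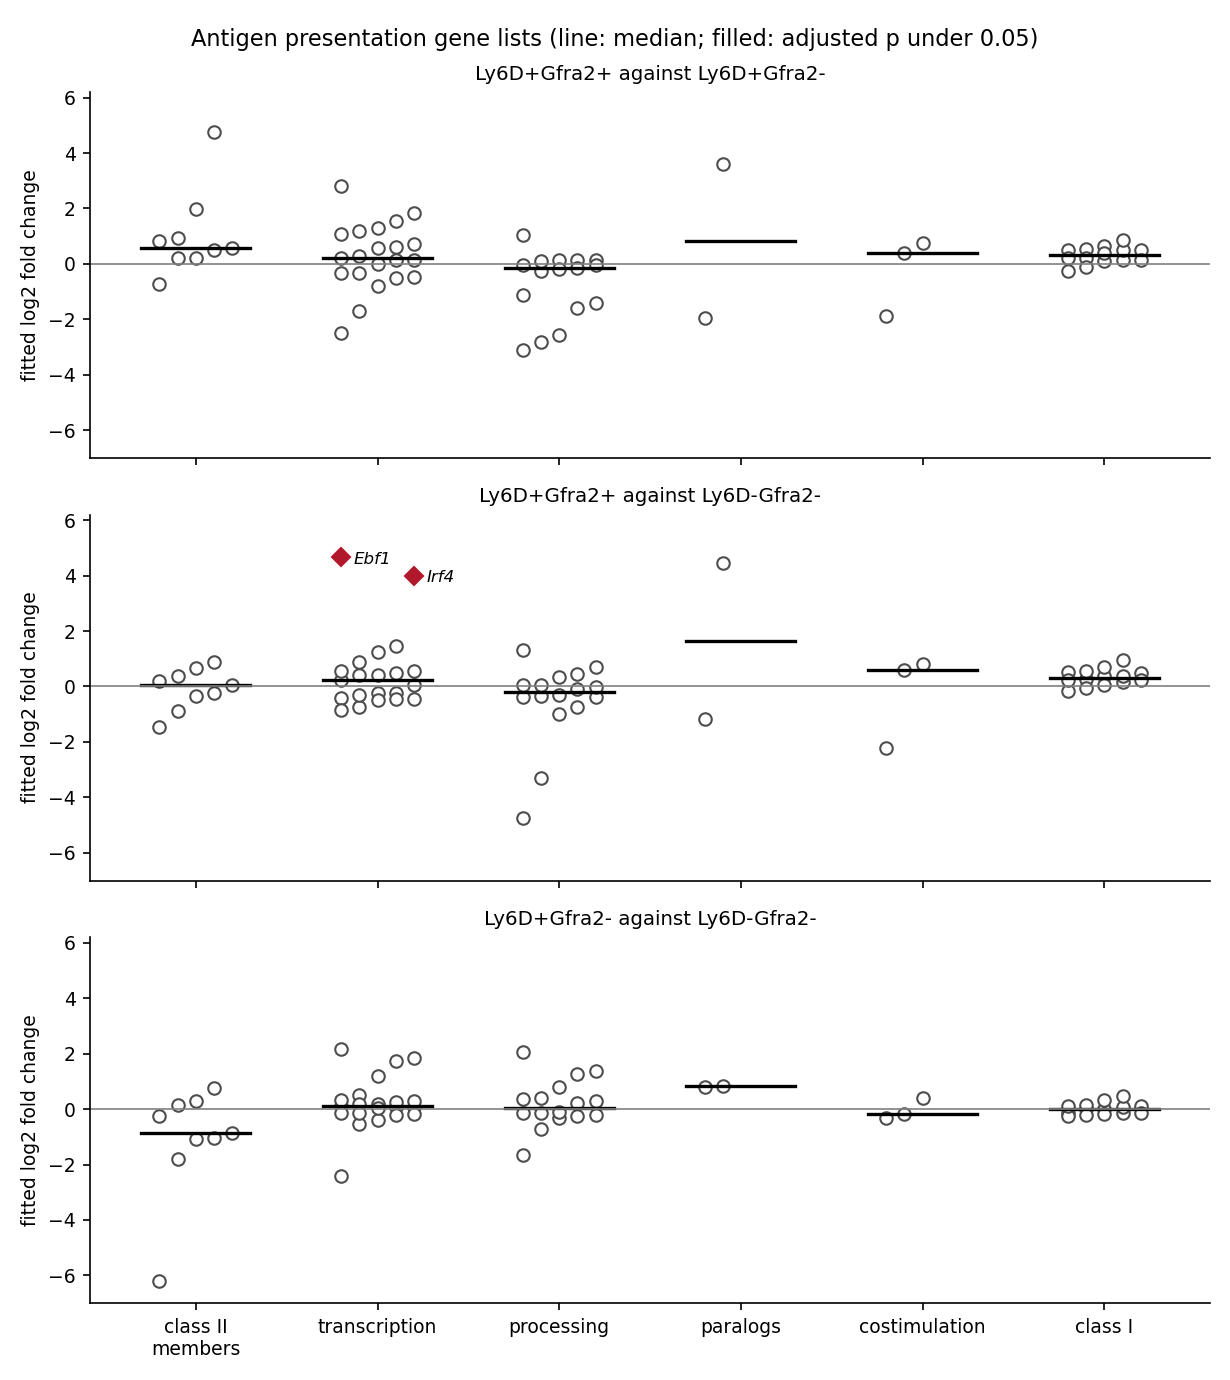
Fitted log2 fold change of each gene of the 9 members and the 5 lists, with Ly6D+Gfra2+ against Ly6D+Gfra2- at the top, Ly6D+Gfra2+ against Ly6D-Gfra2- in the middle and Ly6D+Gfra2- against Ly6D-Gfra2- at the bottom. Lines are list medians and filled diamonds genes with an adjusted p under 0.05; these are Ebf1 and Irf4 in the middle panel.

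Markers of mature cells that make class II were measured beside these genes. The 8 mature B-cell markers in the files summed to between 260 and 527 CPM in Ly6D+Gfra2+ libraries, between 138 and 363 CPM in Ly6D+Gfra2- libraries and between 90.2 and 251 CPM in Ly6D-Gfra2- libraries. Most of this was Cd37, a broadly expressed leukocyte tetraspanin, while Ms4a1 and Ccr6 were at 0 in all 13 libraries. The 7 conventional dendritic cell markers summed to between 1.19 and 5.26 CPM in Ly6D+Gfra2+ libraries, between 20.8 and 57.2 CPM in Ly6D+Gfra2- libraries and between 11.3 and 52.5 CPM in Ly6D-Gfra2- libraries, with Batf3 at 0 in all. The highest Ly6D-Gfra2- sum is that of the library labelled replicate 3, and the next was 25.9 CPM. The Ly6D+Gfra2+ and Ly6D+Gfra2- ranges did not overlap, and Itgax supplied the largest share.

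The 9 plasmacytoid dendritic cell markers summed to between 462 and 639 CPM in Ly6D+Gfra2+ libraries, between 1083 and 1785 CPM in Ly6D+Gfra2- libraries and between 606 and 1311 CPM in Ly6D-Gfra2- libraries, the highest of these being the library labelled replicate 3. The other 5 ended at 853 CPM, below every Ly6D+Gfra2- library. The median sum was 566 CPM for Ly6D+Gfra2+, 1314 CPM for Ly6D+Gfra2- and 826 CPM for Ly6D-Gfra2-. Tcf4 supplied the largest share, with means of 412, 651 and 572 CPM in these groups. Ccr9, Ly6c2 and Klk1 had their highest mean in another group than Ly6D+Gfra2-, and the other markers of the list had it there. The 10 macrophage and monocyte markers summed to between 41.2 and 79.5 CPM in Ly6D+Gfra2+ libraries, between 47.7 and 113 CPM in Ly6D+Gfra2- libraries and between 57.2 and 168 CPM in Ly6D-Gfra2- libraries, with C1qa at 0 in all 13 libraries. Of the markers in the files, 5 of 8 for mature B cells and 3 of 7 for conventional dendritic cells were tested. For plasmacytoid dendritic cells 8 of 9 were tested, and for macrophages and monocytes 4 of 10. None of those tested passed in any comparison, and the part of the 4 lists in the class II values was not tested.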

How the data were processed

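Per the labels' protocols, extraction used Qiagen's RNeasy micro kit and library preparation used NuGEN Ovation kits. The deposited files hold raw read counts per RefSeq transcript identifier on mm10. The submitters' processing notes name HISAT, TopHat, HOMER, FastQC and DESeq without role, order or version, and strand handling is not given in the sources used here. Of 24072 identifiers, 23811 were named from the RefSeq table (GRCm38.p6) and 148 from GENCODE M21. The members and lists were chosen with earlier results of these data known.

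Counts were tested with edgeR 4.0.16 in R 4.3.3: TMM scaling, filterByExpr (minimum count 10, minimum total 15), group and name prefix as terms over all 13 libraries, and a two-sided quasi-likelihood test with Benjamini-Hochberg adjustment over 12722 genes at 0.05. Fits with DESeq2 1.42.0, limma voom 3.58.1, other scalings, filters and terms, and each library left out were alternatives. The voom fit gave each library a quality weight. Named were all members, every called gene of the pathway lists and up to 3 genes per pathway list and comparison with the smallest p. The code was tested on simulated data. Intervals and detection limits cover counting error only. Depths of 6892728 to 23705975 counts limit precision for genes under about 1 CPM.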

Additional observations from a re-analysis of the deposited data

Results flagged for a closer look

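In the Ly6D-Gfra2- group, 4 values stood apart from the other 5 libraries by the gap to the nearest library, relative to the range of the group (Dixon's test at the 95% level). H2-Eb1 was at 9.91 CPM in replicate 5, with the next library at 2.72 CPM. H2-Oa was at 39.8 CPM in the same replicate 5, with the next at 15.9 CPM. H2-DMb1 was at 25.7 CPM in replicate 1, with the next at 10.5 CPM. H2-Ob was at 261 CPM in replicate 4, below the next lowest library at 382 CPM. Of 18 combinations of gene and group with at least 4 libraries, these are 4. Chance marks about 5% of such groups if values follow a normal distribution. CPM values of low genes need not follow it, so the rate expected here is not known. The 3 high values belong to genes of low level.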

How the results depend on the processing

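No setting called a member in Ly6D+Gfra2+ against Ly6D+Gfra2- or in Ly6D+Gfra2- against Ly6D-Gfra2-. In Ly6D+Gfra2+ against Ly6D-Gfra2- the count of members called was 1 (H2-Ob) with no prefix term, with no filter and by DESeq2, and between 0 and 1 when single libraries were left out. Ciita and H2-Ob kept their sign in all 3 comparisons over every setting that gave a value. The other members changed sign in at least 1 comparison, and none of the values that follow was called. Between Ly6D+Gfra2+ and Ly6D+Gfra2-, H2-Aa was -0.79 by voom, -0.29 with only the groups compared and -0.29 within prefix T. H2-Eb1 was 0.23 with no prefix term, 0.75 with only the groups compared and 0.75 within prefix T. Cd74 was -0.16 by voom. H2-DMb1 was -0.12 with the replicate block, -0.22 with only the groups compared and -0.22 within prefix T. Between Ly6D+Gfra2+ and Ly6D-Gfra2-, H2-Aa was 0.046 with no prefix term, H2-Oa was -0.065 with library size alone, and H2-DMb1 was 0.48 both with only the groups compared and within prefix T. H2-Eb1 was -2.96 with the replicate block, -0.12 with library size alone, -2.48 by voom, -0.45 with only the groups compared and -0.45 within prefix T. Between Ly6D+Gfra2- and Ly6D-Gfra2-, H2-Ab1 was -0.10 with the replicate block and -0.25 within prefix T, and H2-Eb1 was -2.29 with the block, -0.083 by voom and -1.20 within prefix T. H2-DMa was 0.0019 and H2-DMb1 0.70 within prefix T.

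Leaving out single libraries moved the values over these ranges. In Ly6D+Gfra2+ against Ly6D+Gfra2-, Cd74 lay between -0.77 and 1.92, H2-Aa between -1.91 and 0.79, H2-Ab1 between -0.16 and 0.49, H2-DMb1 between -0.094 and 1.07 and H2-Eb1 between -9.22 and 1.23. In Ly6D+Gfra2+ against Ly6D-Gfra2-, Cd74 lay between -1.80 and 0.33, H2-DMb1 between -0.95 and 0.22, H2-Eb1 between -8.45 and 1.15 and H2-Oa between -0.19 and 0.90. In Ly6D+Gfra2- against Ly6D-Gfra2-, H2-Ab1 lay between -0.022 and 0.42 and H2-Eb1 between -2.10 and 1.39. The lowest H2-Eb1 values are without Ly6D+Gfra2+ replicate 6, when that group is at 0, and depend on the prior count. For Ciita in Ly6D+Gfra2+ against Ly6D+Gfra2- the fit of only the groups compared gave no value, since the gene fell below its filter. The causes were not tested.

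Deviations from the group mean in same-numbered libraries of different groups had correlations of -0.03 to 0.14. Differently numbered libraries were not set beside them, so this cannot tell whether libraries are paired. In the titles of prefix T libraries, a tag that follows the replicate number is shared between groups. Pairing was therefore not settled, and the replicate block was run as an alternative. With it 0 members were called, and of all genes 25 were called in Ly6D+Gfra2+ against Ly6D+Gfra2-, 92 in Ly6D+Gfra2+ against Ly6D-Gfra2- and 8 in Ly6D+Gfra2- against Ly6D-Gfra2-, beside 52, 177 and 0 without it. DESeq2 called 545, 794 and 20 genes, and the range over all settings with 1 library left out was 12 to 184, 49 to 372 and 0 to 16. With library size alone the median of all genes was -0.15 in Ly6D+Gfra2+ against Ly6D+Gfra2- and -0.25 in Ly6D+Gfra2+ against Ly6D-Gfra2-, beside 0.025 and 0.013 with TMM scaling. Fits within prefix P were added after the data had been seen.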
